A study of Homo sapiens with 12 samples.

Results

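GPX1, GPX4, HMOX1, NQO1, GCLM, GCLC, TXNRD1, SLC7A11, SOD2 and PRDX1 are 10 genes of the cellular antioxidant defence, several of them textbook targets of the transcription factor NRF2. They were taken by symbol and are 10 of the 20307 genes in the table. Their RNA levels were measured by RNA sequencing in 12 libraries, 3 in each of 4 groups. H1299, an established non-small-cell lung carcinoma line, was given with the genotype WT, called control here, or with DCBLD2 overexpression. DCBLD2 is a transmembrane protein with neuropilin-like domains. THP-1, an established monocytic leukaemia line with the genotype WT, takes on macrophage features under the phorbol ester PMA. PMA was given for 24 h, and the THP-1 cells were next exposed for 48 h to either type of H1299. Co-culture is named in the design text but supernatant in the treatment labels, and contact cannot be told from conditioned medium here. No THP-1 group without tumour cells and no group without PMA is used here, and no label says whether the H1299 line is 1 clone or what construct the control carried.

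Cells meet reactive oxygen with linked enzyme systems. Superoxide dismutases turn superoxide into hydrogen peroxide, which glutathione peroxidases and peroxiredoxins then reduce with electrons from glutathione and thioredoxin. Under basal conditions KEAP1 holds NRF2, the product of NFE2L2, for degradation through a CUL3 ubiquitin ligase. Oxidants and electrophiles modify KEAP1, NRF2 accumulates, and with small MAF proteins it binds antioxidant response elements near genes such as NQO1, HMOX1, GCLM and TXNRD1, where BACH1 acts as a repressor. In macrophages these genes also serve haem and iron recycling and the defence against their own oxidative burst.

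The core of the antioxidant response element, TGACNNNGC, was searched on both strands of RefSeq windows (GRCh38.p14) from 250 bases before to 50 after a gene's start. Of the 10 genes, 7 had a window here, and HMOX1, SLC7A11 and PRDX1 are named only. GCLM and TXNRD1, 2 of the 7, held the core, against 16.06% of all 27305 genes with a window and 13.35% of all 35116 windows. Among the other NRF2 targets listed for the pathway it was found in 8 of 22 genes. The stretch upstream of each of these genes is shown because GCLM and TXNRD1 moved together in both cell lines. Capitals mark a core that lies whole within its stretch.

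GCLM, chr1:93909456-93909580, minus strand: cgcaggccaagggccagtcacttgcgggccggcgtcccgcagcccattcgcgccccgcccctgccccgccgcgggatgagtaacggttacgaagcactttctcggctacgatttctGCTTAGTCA

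TXNRD1, upstream start, chr12:104215629-104215778, plus strand: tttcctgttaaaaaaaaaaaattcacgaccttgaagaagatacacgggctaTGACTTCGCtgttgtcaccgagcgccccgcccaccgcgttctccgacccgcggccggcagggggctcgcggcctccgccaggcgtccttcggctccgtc

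The GCLM core lay 34 to 26 bases before the RefSeq start and reads TGACTAAGC on the opposite strand. In GENCODE 29 GCLM starts at 93909456, the last base of this core, so the distance holds for the RefSeq start alone. The stretch compared below reaches 93909454, inside the gene by GENCODE 29. The upstream TXNRD1 window held a core 99 to 91 bases before its start and another, in the opposite direction, 8 to 0 bases before it. That core runs past the end of the stretch shown, whose last bases are left in lower case. A downstream TXNRD1 start had a further core, 102 to 94 bases before it. This core and the GCLM core were aligned and the stretch lengthened on both sides while at most 1 base differed. The longest such stretch had 18 bases, of which 17 were identical. The high identity follows from this rule and from the core searched for, so it is no independent likeness. The difference was A12T, counted from 1 at the 5′ end, with the GCLM base first.

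GCLM, chr1:93909454-93909471, minus strand: gatttctGCTTAGTCAtt

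TXNRD1, downstream start, chr12:104286923-104286940, plus strand: gatttctGCTTTGTCAtt

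These matches describe the letters in the windows, not binding, and a window without the core says only that those letters are not in it.

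DCBLD2 itself went against the H1299 labels. Its level was 247, 148 and 196 TPM (transcripts per kilobase scaled to a fixed total, so a level corrected for gene length and depth) in the labelled control libraries and 105, 98.2 and 92.5 TPM in the labelled DCBLD2 libraries, a log2 fold change of -1.27 ± 0.17 (SE; adjusted p = 0.00284, edgeR quasi-likelihood test). Groups are therefore called labelled control and labelled DCBLD2, and every change is given as labelled DCBLD2 against labelled control. In THP-1, labelled by the H1299 type it was exposed to, DCBLD2 was lower too, at 11.9 and 6.47 TPM on average. That log2 fold change was -0.81, and -0.87 to -0.79 over the 15 alternatives run. The cause was not tested in either line. Libraries held 14578887 to 26787853 estimated reads. H1299 carried KRT8 and KRT18 at 539 and 1379 TPM in labelled control, while the carcinoma markers CDH1, KRT19 and EPCAM were at 0 or below 1 TPM, and THP-1 carried the myeloid factor SPI1 at 381 TPM but CYBB below 1 TPM. The summed 14 myeloid markers were 8394 to 8453 TPM in labelled control THP-1 and 9904 to 10090 TPM in labelled DCBLD2 THP-1. Of these 14 markers 9 were higher and 4 lower (34.5% and 33.6% of all genes). Their median log2 fold change was 0.475, beside 0.0005 over all genes, so most rose but not all. CD14 went from 115 to 319 TPM on average, but ITGAM from 132 to 69.7 TPM. FCER1G went from 1249 to 2166 TPM and TYROBP from 869 to 1733 TPM, but ITGB2 from 3139 to 2764 TPM and LAPTM5 from 1804 to 1564 TPM. Mitochondrial reads were 3.475% to 3.509% and 2.462% to 2.583% of the total in these THP-1 groups, and ribosomal protein reads 3.729% to 3.753% and 5.14% to 5.418%. In H1299 the summed 14 carcinoma markers were 2447 to 2594 TPM and 1742 to 2204 TPM, with KRT18 alone at 1379 and 938 TPM on average. The summed myeloid markers there, nearly all CD68 with 12 and 13 of the 14 below 1 TPM, were 139.5 to 142.3 TPM and 199.6 to 202.5 TPM. The summed 6 lymphoid and endothelial markers were at most 3.987 TPM in H1299 and 140.5 to 174 TPM in THP-1, where they were nearly all PECAM1. The H1299 maximum came from labelled control replicate 1, with PECAM1, VWF and CDH5 at 1.97, 1.24 and 0.773 TPM. In the other H1299 libraries these were at most 0.473, 0.232 and 0.106 TPM. Most of the summed levels and read shares given above moved with the groups, and their part in the results was not tested. In bulk RNA, fewer cells of a type and less RNA per cell cannot be told apart.

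In H1299, TXNRD1, GCLM and HMOX1 rose and no member fell. Of the 9 members tested, 3 were higher, 0 lower and 6 not called at an adjusted p under 0.05, where 10.3% of all 12773 genes tested were higher and 10.6% lower (20.9% in all). The members' median log2 fold change was 0.32, beside 0.0047 over all genes. Labelled control and labelled DCBLD2 libraries stayed apart for 6 of the 9, against 41.5% of all genes. By edgeR with an unadjusted p under 0.05, and by DESeq2, 0 members were lower. GPX1 was too low in H1299 to be tested.

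In THP-1 the same enzymes split. GPX1, SLC7A11, NQO1, GPX4, GCLC and SOD2 rose, and HMOX1, TXNRD1, GCLM and PRDX1 fell. All 10 members were tested and called, 6 higher and 4 lower, with a median of 0.32 beside 0.0005 over all genes. Here calls are common: 34.5% of 13120 genes were higher, 33.6% lower, 68.1% in all, and replicates of the groups stayed apart for 71% of genes and for all 10 members. The fit's common coefficient of variation between replicates was 1.96%, against 13.3% in H1299, so small differences reached the threshold in THP-1. Separate cultures are not stated for the replicates, so each p-value rests on the spread among these libraries, which may be technical.

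**Figure D1:**
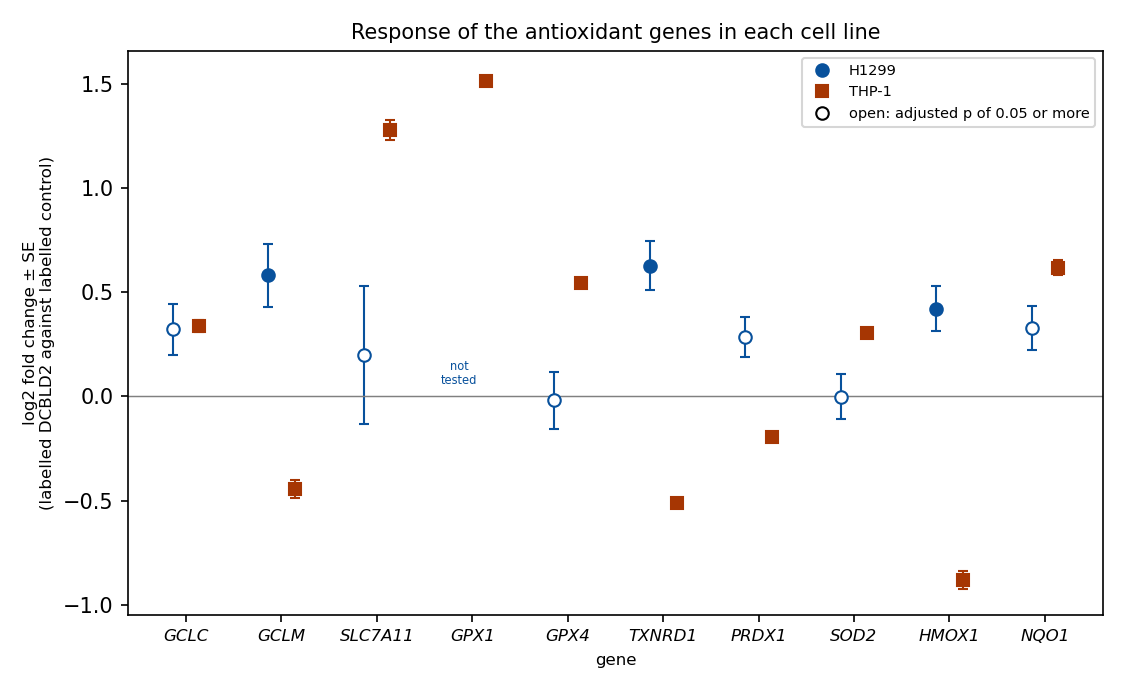
Log2 fold change ± SE of each of the 10 genes (x axis) for labelled DCBLD2 against labelled control, from the edgeR fit of 6 libraries per line. Circles are H1299 and squares THP-1, and open symbols have an adjusted p of 0.05 or more. GCLM, TXNRD1 and HMOX1 lie above 0 in H1299 and below 0 in THP-1.

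The genes that supply glutathione did not move as a unit. GCLC and GCLM encode the catalytic and the modifier subunit of glutamate-cysteine ligase, the rate-limiting enzyme of glutathione synthesis, and SLC7A11 encodes the cystine carrier of system xc-. GCLC was at 64.1, 62.7 and 63.0 TPM in labelled control THP-1 and 77.7, 77.2 and 75.5 TPM in labelled DCBLD2 THP-1, a log2 fold change of 0.34 ± 0.03 (SE; adjusted p = 8.85e-11). In the same libraries GCLM was at 23.7, 21.9 and 22.3 TPM and then at 16.1, 15.3 and 14.8 TPM, a change of -0.45 ± 0.04 (SE; adjusted p = 1.68e-09). The catalytic subunit was thus higher in each labelled DCBLD2 library than in any labelled control library, and the modifier subunit lower. With the spread of the H1299 fit used for THP-1, GCLC lost its call (adjusted p = 0.083).

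In H1299 both subunits were higher in labelled DCBLD2, and only GCLM passed the threshold. GCLM was at 13.1, 12.2 and 17.8 TPM in labelled control and 19.8, 25.3 and 19.7 TPM in labelled DCBLD2, a log2 fold change of 0.58 ± 0.15 (SE; adjusted p = 0.0257). Without labelled DCBLD2 replicate 1 or 2 the adjusted p was 0.0593 or 0.122. GCLC was at 15.3, 11.6 and 15.3 TPM against 18.6, 18.6 and 16.7 TPM, which did not overlap, with a change of 0.32 ± 0.12 (SE; adjusted p = 0.091). When all 12 libraries shared a fit, its adjusted p was 0.00668. That fit shares the spread of each gene between the lines. It called 5056 genes in H1299 and 6164 in THP-1, against 2669 and 8941 in the separate fits. H1299 calls gained in the fit of 12 libraries, here and below, carry this limit.

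SLC7A11 had the lowest mean level of the members in both THP-1 groups and the second largest rise there. It was at 5.55, 6.53 and 6.34 TPM in labelled control and 14.2, 13.3 and 11.9 TPM in labelled DCBLD2. The log2 fold change was 1.28 ± 0.05 (SE; 2.42-fold, adjusted p = 1.01e-17). In H1299 the libraries scattered, with 5.21, 1.55 and 4.56 TPM in labelled control and 6.08, 5.37 and 3.30 TPM in labelled DCBLD2. The groups overlapped, and the change of 0.20 ± 0.33 (SE) was not called (adjusted p = 0.696).

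GPX1, a selenoprotein that reduces hydrogen peroxide with glutathione, showed the largest rise of the members in THP-1 and was close to absent from H1299. It was at 368, 389.9 and 382 TPM in labelled control THP-1 and 1057, 1067 and 1051 TPM in labelled DCBLD2 THP-1, with no overlap. The log2 fold change was 1.51 ± 0.02 (SE; 2.85-fold, adjusted p = 2.75e-26). It kept its call in each of the 15 alternatives run, at 1.48 to 1.53. In H1299 the 6 libraries held between 0.116 and 0.867 TPM, and the estimated counts summed to 12.24 in labelled control and 7.03 in labelled DCBLD2. Of the labelled control counts, 9.24 came from replicate 1. GPX1 and its processed pseudogenes can share reads, so its level carries uncertainty from how the authors' counting divided them.

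GPX4, the selenoprotein that reduces lipid hydroperoxides in membranes and restrains ferroptosis, rose in THP-1 and was not called in H1299. In THP-1 it went from 561, 546 and 574 TPM to 809.9, 805 and 774 TPM, a log2 fold change of 0.54 ± 0.02 (SE; adjusted p = 8.23e-17). The H1299 libraries held 907, 944 and 785 TPM in labelled control and 779.7, 842 and 989 TPM in labelled DCBLD2. These groups overlapped, with a change of -0.02 ± 0.14 (SE; adjusted p = 0.937).

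Of the thioredoxin members, TXNRD1 rose in H1299, and TXNRD1 and PRDX1 both fell in THP-1. The wider thioredoxin system, given below, did not fall with them in THP-1. There 13 of 21 genes rose and 6 fell (34.5% and 33.6% of all genes). TXNRD1, cytosolic thioredoxin reductase, is a selenoprotein that recharges thioredoxin with NADPH. In H1299 it was at 302, 225 and 268 TPM in labelled control and 412, 475 and 382 TPM in labelled DCBLD2, the largest change of the members tested there at 0.63 ± 0.12 (SE; adjusted p = 0.00828). Without labelled DCBLD2 replicate 2, the highest of these libraries, the adjusted p was 0.0536. In THP-1 it was at 122, 118 and 114 TPM in labelled control and 78.2, 85.3 and 89.6 TPM in labelled DCBLD2, a log2 fold change of -0.51 ± 0.02 (SE; adjusted p = 1.53e-16). EID3 lies within TXNRD1 on the same strand.

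PRDX1, a peroxiredoxin that reduces hydrogen peroxide through thioredoxin, was the most abundant member in both H1299 groups. Its H1299 libraries held 956, 1083 and 1044 TPM in labelled control and 1229.7, 1305 and 1246 TPM in labelled DCBLD2, with no overlap and a change of 0.28 ± 0.10 (SE; adjusted p = 0.0622). The gene passed the threshold with DESeq2 (adjusted p = 0.0453), in limma on log2(TPM + 1) (0.0427), in the fit of 12 libraries (0.00462) and without labelled control replicate 2 (0.0473). In THP-1 it was at 669.8, 651 and 633 TPM and then at 555, 552 and 560.5 TPM. That fall, of -0.20 ± 0.02 (SE; adjusted p = 1.99e-08), was the smallest change of the members in THP-1 and was not called with the spread of the H1299 fit (adjusted p = 0.355).

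SOD2, the manganese superoxide dismutase of mitochondria and a known target of inflammatory signalling, was the most abundant member in labelled control THP-1. It was at 703, 700.2 and 695 TPM there and at 793, 808 and 801 TPM in labelled DCBLD2 THP-1, a log2 fold change of 0.30 ± 0.02 (SE; adjusted p = 4.44e-15). The rise was not called with the spread of the H1299 fit (adjusted p = 0.12). In H1299 the libraries held 67.0, 86.3 and 87.1 TPM in labelled control and 80.9, 94.8 and 76.3 TPM in labelled DCBLD2, with overlapping groups and a change of 0.00 on the log2 scale (SE 0.11; adjusted p = 0.993).

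HMOX1 and NQO1, both textbook NRF2 targets, moved in opposite directions in THP-1. HMOX1 encodes haem oxygenase-1, which degrades haem to iron, carbon monoxide and biliverdin, and NQO1 encodes a quinone reductase. HMOX1 was at 85.2, 83.1 and 82.3 TPM in labelled control THP-1 and 45.3, 46.5 and 40.9 TPM in labelled DCBLD2 THP-1. This was the largest fall of the members, at -0.88 ± 0.04 (SE; adjusted p = 2.52e-15). NQO1 was at 78.2, 76.7 and 81.6 TPM and then at 128, 123 and 127 TPM, a log2 fold change of 0.62 ± 0.04 (SE; adjusted p = 5.49e-14). The pair stood at close levels in labelled control THP-1 and far apart in labelled DCBLD2 THP-1.

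In H1299 HMOX1 was at 28.1, 29.4 and 29.3 TPM in labelled control and 38.1, 42.5 and 37.3 TPM in labelled DCBLD2, a log2 fold change of 0.42 ± 0.11 (SE; adjusted p = 0.0247). The call did not hold without labelled control replicate 3 (adjusted p = 0.0772) or without labelled DCBLD2 replicate 1, 2 or 3 (0.0612, 0.109 and 0.0642), although the change stayed positive. NQO1 was at 548, 486 and 486 TPM and then at 563, 679 and 668 TPM. Its groups did not overlap, and the change of 0.33 ± 0.11 (SE) missed the threshold (adjusted p = 0.0526), passing it with DESeq2 (0.0277), in the fit of 12 libraries (0.00296) or without labelled control replicate 1 (0.0345). An antisense gene overlaps NQO1, as antisense or opposite-strand genes overlap GCLC, TXNRD1, SLC7A11 and PRDX1. How the counting treated strand is not given in the sources used here, and reads of such partners cannot be told apart.

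**Figure D2:**
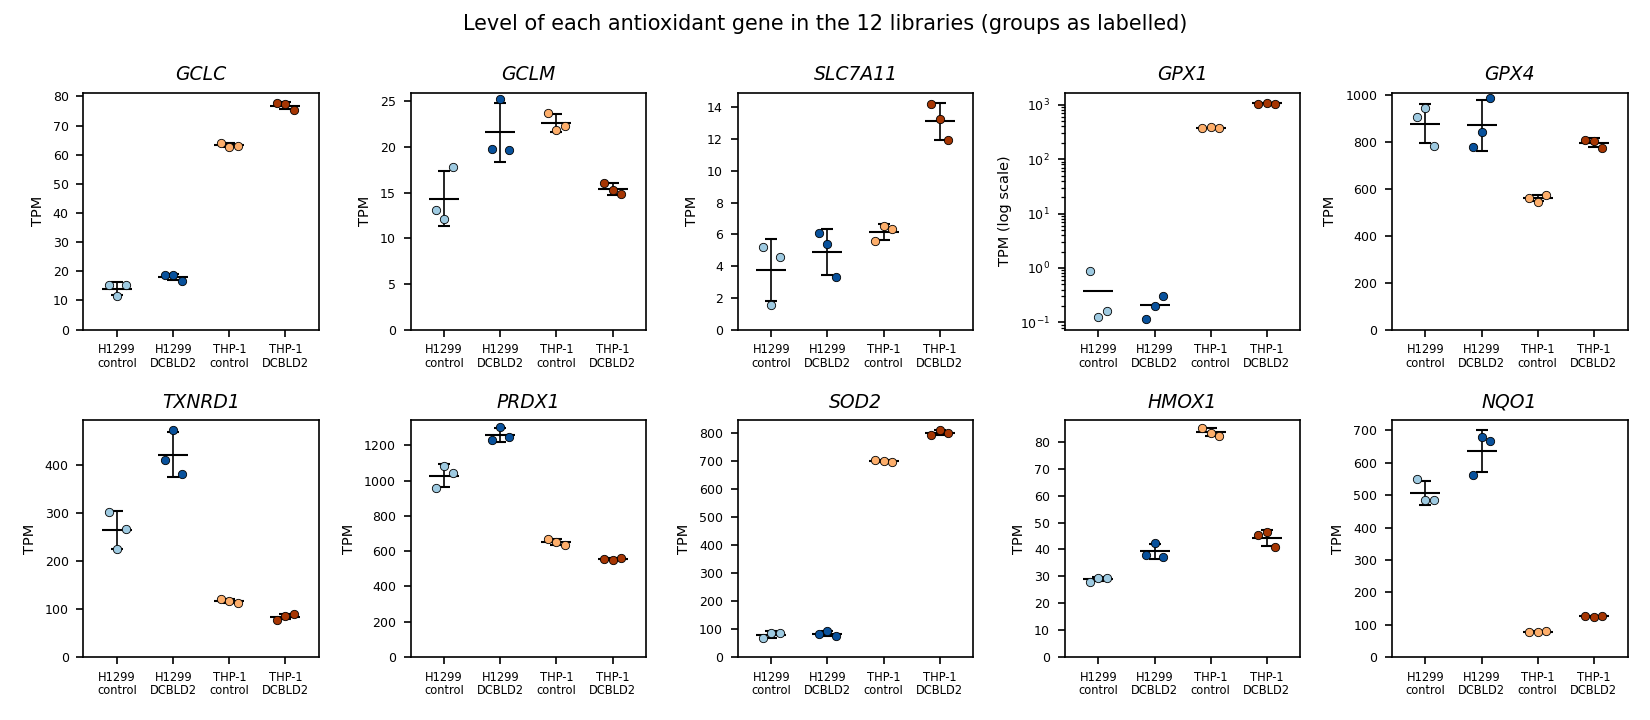
Level of each of the 10 genes in TPM (y axis, linear from 0, logarithmic for GPX1) in the 12 libraries by labelled group. Points are libraries, the wide bar is the mean of 3, and the error bars are the SD, which is not drawn for GPX1 in any group. GPX1 and SLC7A11 lie highest in labelled DCBLD2 THP-1, HMOX1 lies highest in labelled control THP-1, and TXNRD1 and PRDX1 lie highest in labelled DCBLD2 H1299.

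The responses of the lines were compared by an interaction term in a fit of all 12 libraries, given as the THP-1 change minus the H1299 change. The fit shares the spread of each gene between the lines, although the common coefficient of variation was 13.3% in H1299 and 1.96% in THP-1. Of the 9 members tested in both lines, 3 had a higher and 4 a lower response in THP-1, where 19.3% and 19.5% of 14244 genes did (38.7% in all). GPX1, too low in H1299 for a usable comparison, is left out of this count. HMOX1 differed by -1.32 ± 0.11 (SE; adjusted p = 1.84e-06), TXNRD1 by -1.15 ± 0.12 (SE; adjusted p = 9.23e-06) and GCLM by -1.04 ± 0.17 (SE; adjusted p = 2.59e-04). These genes rose in H1299 and fell in THP-1. PRDX1 differed by -0.49 ± 0.10 (SE; adjusted p = 0.00131) and GPX4 by 0.55 ± 0.15 (SE; adjusted p = 0.00858). All 5 differences were called in each of the 17 alternatives run.

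The differences of SLC7A11 and SOD2 passed the threshold narrowly. SLC7A11 differed by 1.06 ± 0.37 (SE; adjusted p = 0.0359), with an adjusted p of 0.0521 to 0.0765 when any THP-1 library was left out, 0.051 and 0.0599 without labelled control H1299 replicate 1 or 3, and 0.055 without labelled DCBLD2 H1299 replicate 3. With all libraries it was 0.0596 with DESeq2, and the value lay between 0.86 and 1.45 over the 17 alternatives. SOD2 differed by 0.29 ± 0.11 (SE; adjusted p = 0.0492), with 0.0757 to 0.0958 when any THP-1 library was left out, at 0.28 to 0.45 over the alternatives. For GPX1 the fit gave 2.01 ± 0.70 (SE; adjusted p = 0.0345), but the gene entered it through its THP-1 libraries, and without labelled control H1299 replicate 1 the value was 0.70 (adjusted p = 0.654), so no difference of responses is read from it. NQO1, at 0.28 ± 0.11 (SE; adjusted p = 0.0519), and GCLC, at 0.00 (SE 0.11; adjusted p = 1), were not called. NQO1 passed the threshold with DESeq2 (adjusted p = 0.0391), with a variance per line in voom (0.0237), and without labelled control H1299 replicate 1, 2 or 3 (0.0438, 0.0371 and 0.0191) or labelled DCBLD2 H1299 replicate 2 or 3 (0.0345 and 0.0111).

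The order of the members by level also differed between the lines. In labelled control H1299 the mean ± SD (n = 3) ran from PRDX1 at 1028 ± 65.1 TPM through GPX4 at 878 ± 83.2 TPM, NQO1 at 507 ± 36.1 TPM and TXNRD1 at 265 ± 38.8 TPM to SOD2 at 80.1 ± 11.4 TPM. HMOX1 at 28.9 ± 0.724 TPM, GCLM at 14.3 ± 3.02 TPM, GCLC at 14.05 ± 2.15 TPM, SLC7A11 at 3.77 ± 1.95 TPM and GPX1 at 0.385 ± 0.418 TPM followed. GCLM and GCLC were the neighbours whose libraries overlapped. The order was the same in labelled DCBLD2 H1299, where no neighbours overlapped.

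In labelled control THP-1 SOD2, at 699 ± 4.18 TPM (SD, n = 3), led PRDX1, GPX4 and GPX1, and TXNRD1, HMOX1, NQO1, GCLC, GCLM and SLC7A11 followed with no overlap between neighbours. In labelled DCBLD2 THP-1 GPX1 moved from the fourth place to the first at 1058 ± 7.96 TPM, NQO1 passed TXNRD1 and HMOX1, and HMOX1 dropped below GCLC. SOD2, at 801 ± 7.93 TPM, and GPX4, at 797 ± 19.3 TPM, overlapped there. The summed level of the 10 genes was 2653 to 2681 TPM in labelled control THP-1 and 3547 to 3593 TPM in labelled DCBLD2 THP-1, and 2737 to 2879 TPM and 3148 to 3489 TPM in the H1299 groups.

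Between the labelled control groups all 10 members differed in the fit of 12 libraries, where 85.9% of genes were called, 42.3% higher and 43.6% lower in THP-1, and 86.2% did not overlap. GPX1, SOD2, GCLC, HMOX1, GCLM and SLC7A11 were higher in THP-1, with log2 fold changes of 10.31, 3.35, 2.38, 1.82, 0.97 and 0.87. The GPX1 value is set against 12.24 estimated reads over the 3 labelled control H1299 libraries. It was 11.70 without labelled control H1299 replicate 1 and 9.92 and 9.93 without replicate 2 and 3. NQO1, TXNRD1, GPX4 and PRDX1 were lower there, with -2.25, -0.93, -0.39 and -0.39. Cell line, PMA and culture cannot be told apart in this comparison. KRT8 and KRT18 in THP-1 stood at 0.0525% and 0.0148% of their H1299 level in labelled control and at 0.114% and 0.108% in labelled DCBLD2. NQO1 at those shares of its H1299 level would come to 0.266 and 0.075 TPM, and to 0.725 and 0.689 TPM, beside the 78.8 and 126 TPM measured in THP-1. Of 12 tested carcinoma markers 10 were lower in THP-1 and 1 higher, and the share depends on the marker. In labelled control THP-1 and H1299, KRT7 was at 0.588 and 3.27 TPM, CAV1 at 146 and 282 TPM and MET at 18.2 and 22.3 TPM. Carry-over of H1299 RNA was not tested.

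Among 13 regulators of NRF2, 5 rose and 2 fell in THP-1 (34.5% and 33.6% of all genes), and 2 rose and 1 fell in H1299 (10.3% and 10.6%). The medians were 0.02 and 0.11. NFE2L2, which encodes NRF2, was at 74.0, 72.2 and 74.0 TPM in labelled control THP-1 and 105, 111 and 108 TPM in labelled DCBLD2 THP-1, a rise of 0.59 ± 0.03 (SE; adjusted p = 7.29e-16). BACH1, the repressor that competes for the same elements, was at 15.2, 19.8 and 18.7 TPM and then at 22.8, 27.3 and 24.7 TPM, a rise of 0.61 ± 0.04 (SE; adjusted p = 6.43e-13). The factor and the repressor thus rose by similar amounts, and RBX1, the RING subunit of the CUL3 ligase, rose by 0.66 ± 0.05 (SE). KEAP1 rose by 0.16 ± 0.03 (SE; adjusted p = 1.24e-04), from 52.3 ± 1.28 to 56.5 ± 0.161 TPM (SD, n = 3), and was not called in the fit of 12 libraries (adjusted p = 0.0719) or with the spread of the H1299 fit (0.458).

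In H1299 KEAP1 fell, from 81.0, 79.4 and 78.3 TPM to 56.7, 62.6 and 66.5 TPM, by -0.36 ± 0.10 on the log2 scale (SE; adjusted p = 0.0309). CUL3, the scaffold of its ligase, rose by 0.57 ± 0.13 (SE) and the small MAF gene MAFF by 0.54 ± 0.14 (SE). NFE2L2 was at 48.3 ± 11.7 and 60.7 ± 8.10 TPM (SD, n = 3), with overlapping libraries (adjusted p = 0.162), and BACH1 was at 15.4 ± 7.76 and 25.6 ± 4.36 TPM (adjusted p = 0.131). In the fit of 12 libraries NFE2L2 (adjusted p = 0.0392) and BACH1 (0.0356) were called higher. Without labelled control replicate 1 they were also called (0.0332 and 0.00994), and the BACH1 change, 0.60, was then 0.99. The response of KEAP1 differed between the lines by 0.51 ± 0.10 (SE; adjusted p = 9.09e-04). Without labelled DCBLD2 replicate 2, CUL3 and MAFF lost their calls (adjusted p = 0.0905 and 0.105), MAFF also without labelled control replicate 3 (0.0867) and labelled DCBLD2 replicate 3 (0.0756). KEAP1 lost its call without replicate 2 or 3 of labelled control (0.055 and 0.0534) and without replicate 1 or 2 of labelled DCBLD2 (0.0991 and 0.127).

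**Figure D3:**
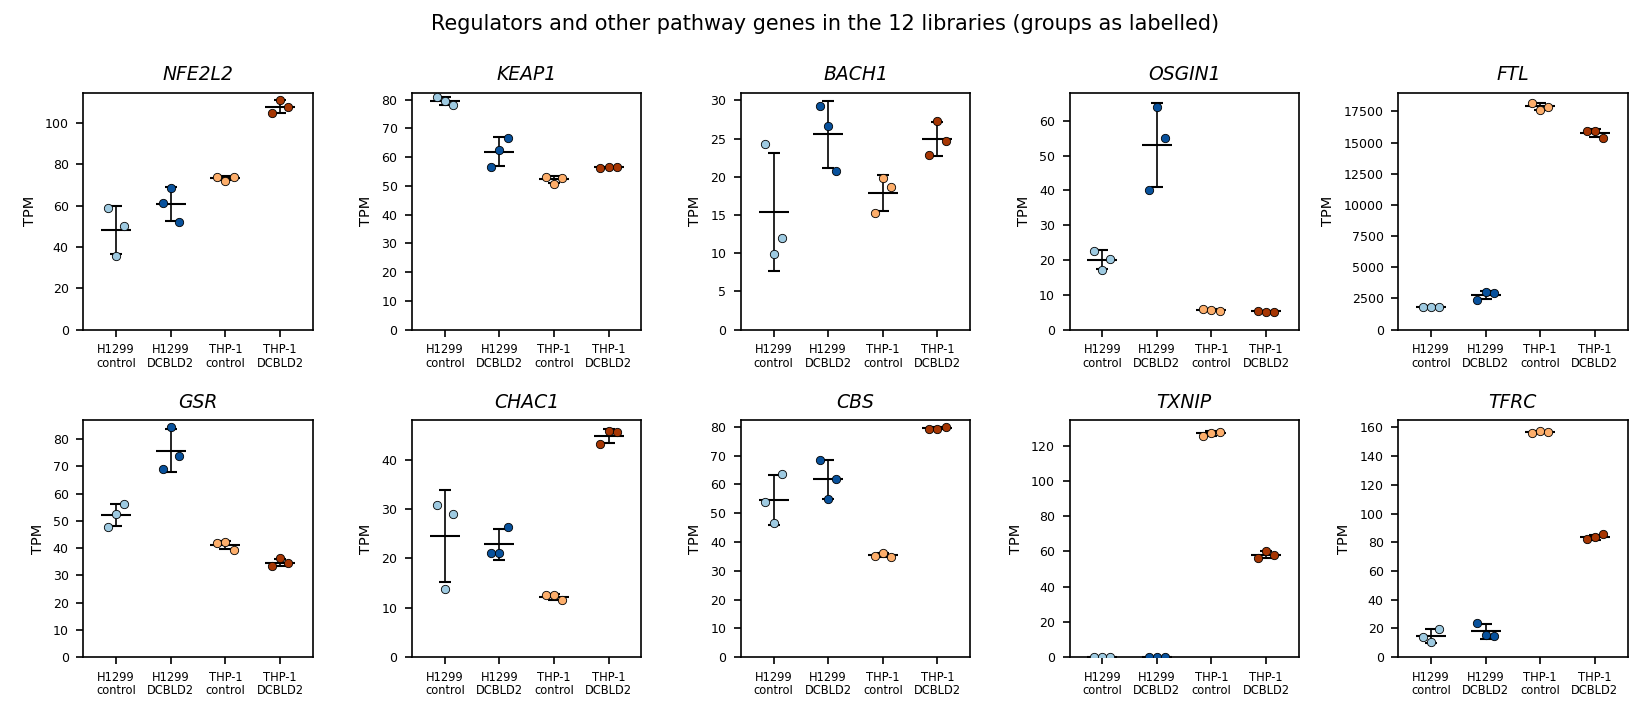
Level in TPM (y axis, from 0) of 10 regulators and other pathway genes in the 12 libraries by labelled group, with points for libraries and bars for the mean ± SD of 3. NFE2L2, CHAC1 and CBS lie highest in labelled DCBLD2 THP-1, TXNIP and TFRC highest in labelled control THP-1, and OSGIN1 and GSR highest in labelled DCBLD2 H1299.

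Of 24 other NRF2 targets tested in THP-1 from a list of 30, 15 fell, 6 rose and 3 were not called, with a median of -0.18, where 33.6% and 34.5% of all genes fell and rose. ABCC1, an exporter of glutathione conjugates, fell from 31.96 ± 1.299 to 17.03 ± 0.671 TPM (SD, n = 3), a change of -0.87 ± 0.04 (SE). EPHX1, microsomal epoxide hydrolase, fell by -0.56 ± 0.07 (SE) on the log2 scale, and UGDH, which makes UDP-glucuronate, by -0.44 ± 0.04 (SE). The ferritin chains FTH1, at 44439 TPM on average in labelled control THP-1, and FTL, at 17905 TPM, made up most of the summed level of this list, 63610 to 64460 TPM.

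In H1299, 3 of 25 tested targets rose, 1 fell and 21 were not called, with a median of 0.07, where 10.3% of all genes rose and 10.6% fell. OSGIN1, an oxidative stress response gene, was at 22.6, 17.2 and 20.4 TPM in labelled control and 40.2, 64.1 and 55.1 TPM in labelled DCBLD2, a rise of 1.33 ± 0.19 (SE; adjusted p = 0.00314). In THP-1 it was at 5.67 ± 0.314 and 5.21 ± 0.0492 TPM (SD, n = 3). FTL rose in H1299 by 0.59 ± 0.11 (SE) and the carbonyl reductase gene CBR3 fell by -0.63 ± 0.18 (SE). The OSGIN1 call held in each alternative run, while FTL lost its call without labelled DCBLD2 replicate 2 (adjusted p = 0.0529), and CBR3 lost its own without replicate 2 or 3 of labelled control (0.0553 and 0.0594) and without replicate 1 or 2 of labelled DCBLD2 (0.101 and 0.148).

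Of 28 tested genes of glutathione synthesis and use, 15 rose, 7 fell and 6 were not called in THP-1, with a median of 0.18, where 34.5% of all genes rose and 33.6% fell. CHAC1, which degrades glutathione and is a known gene of the integrated stress response, was at 12.5, 12.6 and 11.6 TPM in labelled control and 43.1, 45.8 and 45.5 TPM in labelled DCBLD2. Its rise of 1.90 ± 0.06 (SE; adjusted p = 2.81e-19) was larger than that of any member. CBS, which starts the transsulfuration route to cysteine, rose by 1.18 ± 0.03 (SE), from 35.4 ± 0.629 to 79.6 ± 0.447 TPM (SD, n = 3), and MGST3, a microsomal glutathione transferase, by 0.83 ± 0.04 (SE). In H1299, 2 of 28 rose and 1 fell (10.3% and 10.6% of all genes), with a median of -0.06. GSR, which regenerates reduced glutathione, rose there by 0.51 ± 0.10 (SE; adjusted p = 0.0104), from 52.1 ± 4.14 to 75.7 ± 7.95 TPM (SD, n = 3), and GSTM2, a glutathione transferase, fell by -0.66 ± 0.17 (SE). Without labelled DCBLD2 replicate 2 the adjusted p was 0.0622 for GSR and 0.11 for GSTM2, and without labelled DCBLD2 replicate 1 it was 0.076 for GSTM2.

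In the thioredoxin system 13 of 21 tested genes rose and 6 fell in THP-1 (34.5% and 33.6% of all genes), with a median of 0.17. TXNIP, the inhibitor of thioredoxin, fell from 126, 127 and 128 TPM to 56.3, 60.0 and 58.1 TPM, by -1.09 ± 0.03 (SE; adjusted p = 2.30e-22). TXNDC17, a thioredoxin-like protein, rose by 1.06 ± 0.08 (SE), and the peroxiredoxin PRDX5 rose by 0.73 ± 0.03 (SE) from 189 ± 6.06 to 310 ± 10.2 TPM (SD, n = 3), opposite in sign to PRDX1. In H1299 1 of 19 rose and 1 fell (10.3% and 10.6% of all genes). These were NXN, nucleoredoxin, at 0.50 ± 0.11 (SE), and the methionine sulfoxide reductase MSRB1, at -0.54 ± 0.14 (SE). NXN lost its call without labelled DCBLD2 replicate 2 (adjusted p = 0.0708), and MSRB1 without replicate 3 of labelled control (0.0727) and without replicate 1 or 2 of labelled DCBLD2 (0.0713 and 0.124). TXNIP was listed at 0 TPM in 5 of the 6 H1299 libraries.

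Among dismutases, catalase and other peroxidases 5 of 7 tested genes rose and 1 fell in THP-1 (34.5% and 33.6% of all genes), with a median of 0.44. In H1299 0 of 6 were called by edgeR or DESeq2, with 1 higher by edgeR at an unadjusted p under 0.05. With 20.9% of all genes called there by edgeR, a count of 0 among 6 says little. CAT, catalase, rose by 0.58 ± 0.06 (SE), SOD1, the cytosolic dismutase, by 0.44 ± 0.03 (SE), and GPX7 fell by -0.60 ± 0.10 (SE). Of the genes for selenoprotein synthesis and other selenoproteins, 6 of 16 rose and 4 fell in THP-1, close to the shares over all genes, and 3 of 17 fell in H1299, where 10.6% of all genes did. By edgeR 0 of the 17 rose there, with 1 higher at an unadjusted p under 0.05 and 1 by DESeq2. SEPHS2, which makes the selenium donor, fell in both lines, by -0.49 ± 0.03 (SE) in THP-1 and by -0.79 ± 0.11 (SE; adjusted p = 0.00285) in H1299. SELENOH rose by 0.88 ± 0.04 (SE) in THP-1, where SECISBP2, which reads the selenocysteine signal, rose by 0.21 ± 0.06 (SE) and was not called in the fit of 12 libraries (adjusted p = 0.14), in limma on log2(TPM + 1) (0.188) or with the spread of the H1299 fit (0.346). SELENOS fell in H1299 by -0.63 ± 0.12 (SE), with an adjusted p of 0.0615 without labelled DCBLD2 replicate 2.

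Of the ferroptosis genes 4 of 11 rose and 6 fell in THP-1 (34.5% and 33.6% of all genes), and 1 of 10 rose and 3 fell in H1299 (10.3% and 10.6% of all genes). TFRC, the transferrin receptor, fell in THP-1 from 156, 158 and 157 TPM to 82.0, 83.4 and 85.5 TPM, by -0.88 ± 0.02 (SE; adjusted p = 2.61e-22). SAT1, which acetylates polyamines, fell by -0.83 ± 0.02 (SE) in THP-1 and rose by 0.82 ± 0.21 (SE; adjusted p = 0.0253) in H1299, where single libraries of labelled DCBLD2 held 70.7, 131 and 98.6 TPM. ALOX5, 5-lipoxygenase, rose by 0.57 ± 0.06 (SE) in THP-1 and was listed at 0 TPM in H1299. In H1299 the ferrireductase gene STEAP3 fell by -0.51 ± 0.09 (SE) and AIFM2, which protects membranes from lipid peroxidation, by -0.48 ± 0.12 (SE). Without labelled DCBLD2 replicate 2 the adjusted p was 0.123 for SAT1, 0.0524 for STEAP3 and 0.11 for AIFM2. Without labelled control replicate 3 it was 0.0797 for SAT1 and 0.0709 for AIFM2, and without labelled DCBLD2 replicate 3 it was 0.0623 for SAT1.

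Around HMOX1 in haem metabolism, 5 of 14 genes rose and 5 fell in THP-1, near the 34.5% and 33.6% of all genes, with a median of -0.04. ALAS1, the first enzyme of haem synthesis, fell from 235 ± 5.84 to 150.3 ± 4.31 TPM (SD, n = 3), by -0.62 ± 0.02 (SE). BLVRA, which reduces the biliverdin that haem oxygenase makes, fell by -0.58 ± 0.10 (SE), and UROD, a later enzyme of synthesis, rose by 0.63 ± 0.04 (SE). In H1299 2 of 14 fell, where 10.6% of all genes did, and 0 rose by edgeR, also at an unadjusted p under 0.05, and by DESeq2. Those that fell were ALAD, at -0.60 ± 0.12 (SE), and UROS, at -0.50 ± 0.11 (SE), with adjusted p of 0.0513 and 0.0796 without labelled DCBLD2 replicate 2.

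**Figure D4:**
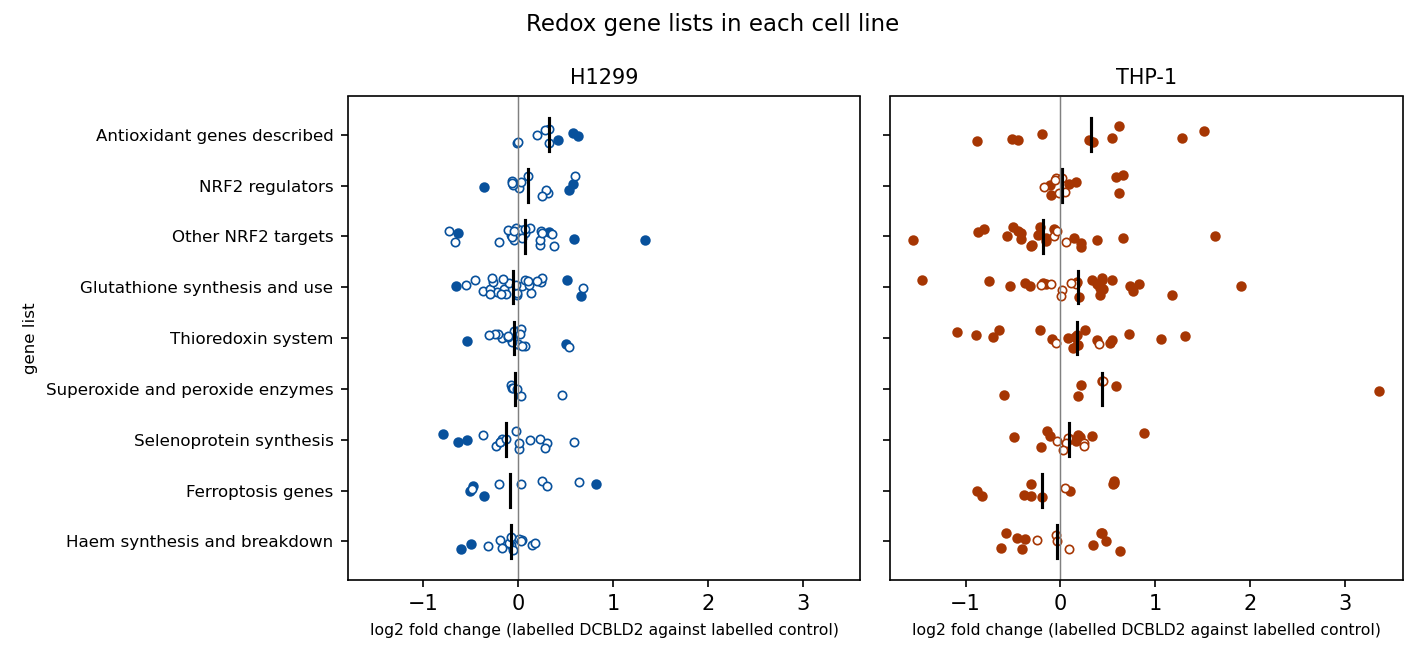
Log2 fold change (x axis, labelled DCBLD2 against labelled control) of every tested gene of the 10 genes described and of 8 pathway lists (y axis) in H1299 and THP-1. Filled points have an adjusted p under 0.05, and black bars are list medians. Most H1299 points are open, most THP-1 points are filled on both sides of 0, and the list of other NRF2 targets has medians of 0.07 and -0.18.

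The genes whose pattern was most like a member's were found over the 12 libraries by the root mean square difference of log2(TPM + 1), each gene centred on its mean. For HMOX1 these were SLC41A1 (0.1204), MERTK (0.1384) and STIP1 (0.1496) among 8242 genes with a mean of at least 10 TPM. MERTK, a receptor for apoptotic cells, averaged 13.5 and 14.8 TPM in the H1299 groups, labelled control first, and 36.5 and 18.6 TPM in the THP-1 groups. For SLC7A11 they were IQGAP1 (0.1735), CCDC82 (0.2088) and FAR1 (0.2395), all with their highest mean in labelled DCBLD2 THP-1. For NQO1 they were SLC25A1, the mitochondrial citrate carrier (0.1362), CREB3L1 (0.1458) and NDUFAF2 (0.1528), all with their lowest mean in labelled control THP-1. The difference between the lines carries much of this likeness, and it describes these libraries alone.

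On GRCh38, by GENCODE 29, GPX1 (ENSG00000233276) lies on chromosome 3 at 49357171 to 49358600 on the minus strand, GPX4 (ENSG00000167468) on chromosome 19 at 1103926 to 1106791 on the plus strand and HMOX1 (ENSG00000100292) on chromosome 22 at 35380361 to 35394214 on the plus strand. NQO1 (ENSG00000181019) lies on chromosome 16 at 69706996 to 69726951, GCLC (ENSG00000001084) on chromosome 6 at 53497341 to 53616970 and GCLM (ENSG00000023909) on chromosome 1 at 93885205 to 93909456, all on the minus strand. TXNRD1 (ENSG00000198431) lies on chromosome 12 at 104215779 to 104350305 on the plus strand. SLC7A11 (ENSG00000151012) lies on chromosome 4 at 138164097 to 138242349 and PRDX1 (ENSG00000117450) on chromosome 1 at 45511036 to 45523047, on the minus strand. SOD2 (ENSG00000291237), placed by RefSeq, lies on chromosome 6 at 159669069 to 159762281 on the minus strand.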

How the data were processed

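RNA of H1299 and of PMA-treated THP-1 was extracted with Trizol and made into libraries with a NEBNext Ultra kit, per the labels' protocols. The submitters' processing notes list StringTie 1.3.1, RSEM, HISAT2, Bowtie2 2.2.8 and fastp 0.18.0, with hg38. The annotation release, like the strand setting, was not given in the sources used here. For 20307 genes the authors deposited estimated counts, not normalized, and TPM values, and 12.02% to 13.37% of the estimated counts per library were not whole. GENCODE 29 held 98.94% of the gene identifiers.

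After rounding, the counts entered edgeR 4.0.16 under R 4.3.3, whose quasi-likelihood test was run with TMM scaling, the filterByExpr minimum of 10 counts and Benjamini-Hochberg adjustment over all genes tested. Each line had its own fit of 6 libraries, and the interaction term and the comparison of labelled control groups came from 1 fit of all 12. Libraries were grouped by the labels. Within H1299 the replicates differed by a chi-square per gene of 10.8 to 36.63, and within THP-1 by 1.547 to 2.304. Sampling of reads alone gives about 1, so the THP-1 replicates lay close to it. No libraries were merged, and these values do not tell separate cultures from technical replicates. Counts were also simulated, with 100 genes changed 1.5-fold, 100 changed 2-fold and each gene's spread set by its expression level. Of the genes changed 1.5-fold 49% (H1299, 12699 genes), 86% (THP-1, 12991 genes) and 44% (interaction, 14144 genes) were recovered. For a 2-fold change it was 88%, 98% and 79%. Unchanged genes made up 4.2%, 4.17% and 5.38% of the calls. Far more genes were called in the data, so these rates hold for the simulated setting only.

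The members and the gene lists were chosen with earlier results of these data known. Named are all 10 members, DCBLD2, NFE2L2, KEAP1 and BACH1, up to 3 called genes per list and line with the largest change among those with no overlap and at least 10 TPM in the higher group, and the 3 genes nearest to HMOX1, SLC7A11 and NQO1. Marker genes and TXNIP in H1299 are given beside results. As alternatives, each library was left out in turn, and the fits used the replicate number as a block, DESeq2 1.42.0, its size factors, other filters, all 12 libraries in a fit, limma 3.58.1 on log2(TPM + 1) and log2(TPM + 0.1), voom with a variance per line, and the common spread of H1299 applied to THP-1. Promoter sequences come from RefSeq (GRCh38.p14). Where a window lies in an annotated untranslated exon, only a short stretch is shown. Protein sequences were not used here.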

Additional observations from a re-analysis of the deposited data

Results flagged for a closer look

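A different response to labelled DCBLD2 in THP-1 and H1299 was called by the interaction test for 37 of the genes named, GPX1 included. Values are the THP-1 change minus the H1299 change on the log2 scale. Over all 14244 genes 38.7% were called. Genes of the pathway lists were named for a large change within a line of these same libraries, so their number cannot be set against that share. Of the members, the difference was -1.32 for HMOX1, -1.15 for TXNRD1, -1.04 for GCLM, -0.49 for PRDX1, 0.55 for GPX4, 1.06 for SLC7A11 and 0.29 for SOD2. The fit also gave 2.01 for GPX1, which had 12.24 and 7.03 estimated reads in the H1299 groups and was 0.70 (adjusted p = 0.654) without labelled control H1299 replicate 1, so it shows no difference of responses. Among regulators it was 0.51 for KEAP1, 0.72 for RBX1, -0.63 for CUL3 and -0.67 for MAFF. Other NRF2 targets differed by -1.41 for OSGIN1, 1.28 for CBR3, -0.75 for FTL, -0.95 for ABCC1 and -0.77 for UGDH. Glutathione genes differed by -0.71 for GSR, 1.98 for CHAC1, 0.97 for CBS and 0.98 for MGST3, and thioredoxin genes by 1.26 for TXNDC17, 0.88 for PRDX5, -1.22 for NXN and 0.71 for MSRB1.

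CAT differed by 0.62 and SOD1 by 0.51. GPX7 stood at -2.32, from 8 and 23 reads in the H1299 groups, and ranged from -3.47 to -1.88 with a library left out. Selenoprotein genes differed by 0.72 for SELENOS and 0.999 for SELENOH, ferroptosis genes by -1.67 for SAT1, 1.05 for STEAP3 and -1.18 for TFRC, and haem genes by 0.56 for ALAD, 0.91 for UROS, 0.69 for UROD and -0.44 for ALAS1. The ALAS1 value lost its call without labelled DCBLD2 H1299 replicate 1 (-0.34, adjusted p = 0.0626) and was -0.25 without labelled control H1299 replicate 1. No cause of these differences was tested, and cell line, PMA and culture cannot be told apart.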

How the results depend on the processing

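In 2835 recomputed values, no gene changed sign with a call in either fit. Of these, 2703 were labelled unchanged, meaning a gene on the same side of the threshold or a count within 1.5-fold. A gene not called in either fit could change sign under this label, as SLC7A11 in H1299 did, at -0.16 to 0.50. The 3 higher members in H1299 were 5 with DESeq2, 6 in the fit of all 12 libraries and 0 to 4 with a library left out (0 without labelled DCBLD2 replicate 2, 1 without replicate 1). Genes called in H1299, 2669, were 5056 in the fit of all 12 libraries, 1862 to 1880 in limma on TPM, and 514 to 3158 with a library left out (1649 without labelled control replicate 3, 1374 and 514 without labelled DCBLD2 replicate 1 and 2). Genes called in THP-1, 8941, were 4531 with the common spread of H1299, which left 4 members higher and 3 lower. Higher members in the interaction, 4 with GPX1, were 1 to 5 with a library left out (1 without replicate 1 of either THP-1 group, 2 without replicate 2 or 3). The causes were not tested. DCBLD2 in H1299 was lower under every alternative run, from -1.45 to -0.96.

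Replicate numbers did not pair the samples: same-numbered libraries correlated at -0.283 to -0.116 in H1299 and 0.03 to 0.057 in THP-1. With the replicate block, 1797 genes were called in H1299, 8990 in THP-1 and 4243 in the interaction, where 1 member was higher. With the block HMOX1 (adjusted p = 0.0928), KEAP1 (0.0999), MAFF (0.062), GSTM2 (0.0553), MSRB1 (0.0593) and AIFM2 (0.0672) lost their H1299 calls, and GPX1 (0.0639), SLC7A11 (0.0742) and SOD2 (0.0865) those of the interaction. With few reads of GPX1 in H1299, a change there was not detectable at this depth.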
